A study of Mus musculus with 4 samples.

Results

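A set of 10 heat shock chaperone genes were examined in CD11b+ splenocytes, the spleen cells that carry the integrin chain encoded by Itgam and that are mainly neutrophils, monocytes and macrophages. The genes were listed by name: 7 whose proteins work in the cytosol (Hspa1a, Hspa1b, Hspa8, Dnajb1, Hsph1, Hsp90aa1 and Hsp90ab1) and 3 whose proteins work in mitochondria (Hspd1, Hspe1 and Hspa9). Every probe set whose only platform gene symbol was one of these names was taken, which gave 25 of 45037 probe sets and 9 of the 10 genes. Hsp90ab1 was not analysed here. There were 17 probe sets for 6 cytosolic genes and 8 for the 3 mitochondrial genes.

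RNA came from mice that met a social threat repeatedly (the labels call this environment HighThreat) and from control mice (LowThreat), with 2 pools per group, 5 mice in each pool and 1 Affymetrix MOE430 2.0 array per pool. Strain, sex, age, the number of threat sessions and the time of killing are not given in the sources used here. Levels are log2 expression values, in which a difference of 1 is a doubling, and differences are social threat minus control. A probe set was called, and the words rose and fell are used, where limma gave an adjusted p under 0.05.

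Heat shock proteins bind unfolded or partly folded proteins and keep them from aggregating. In the cytosol, Hsp70 proteins take up client proteins delivered by J proteins such as Dnajb1, release them again when an exchange factor such as Hsph1 removes ADP, and can pass them on to Hsp90. In mitochondria, Hspa9 helps to pull proteins through the inner membrane, and Hspd1 with its lid Hspe1 forms a closed chamber in which they fold. Heat, other protein damage and the handling of cells switch on part of this set through the transcription factor HSF1, which binds heat shock elements. These are runs of GAA in alternating orientation.

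The promoters are shown because they are where HSF1 acts and because members with closely similar promoters can be compared. RefSeq windows (build GRCm38.p6) were at hand for 6 of the 10 members, 9 windows in all, and the 250 bases before each start were searched. The motifs were GAANNTTC and TTCNNGAA, each its own reverse complement, and the runs of 3 units GAANNTTCNNGAA and TTCNNGAANNTTC, which are reverse complements of each other and contain both shorter motifs. Of 32851 windows of this length, 12.8% held a run of 2 units in either order and 0.466% a run of 3. Such a match describes letters and not binding.

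Hspa1a and Hspa1b lie near each other on chromosome 17, both on the minus strand, at chr17:34972157-34972406 and chr17:34959239-34959488 for the stretches printed. These stretches were 98.8% identical over 250 bases. Counting from 1 at the 5′ end, with the Hspa1b base first and the Hspa1a base last, the 3 differences were T44C, C47T and G249T. Capitals mark the GAANNTTC match, which starts 104 bases before the start site in both genes and is not touched by any of the differences.
Hspa1b: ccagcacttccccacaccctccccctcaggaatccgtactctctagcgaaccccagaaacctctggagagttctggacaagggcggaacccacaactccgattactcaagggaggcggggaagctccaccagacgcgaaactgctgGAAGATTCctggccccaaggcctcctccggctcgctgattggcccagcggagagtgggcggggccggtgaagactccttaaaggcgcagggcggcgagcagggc
Hspa1a: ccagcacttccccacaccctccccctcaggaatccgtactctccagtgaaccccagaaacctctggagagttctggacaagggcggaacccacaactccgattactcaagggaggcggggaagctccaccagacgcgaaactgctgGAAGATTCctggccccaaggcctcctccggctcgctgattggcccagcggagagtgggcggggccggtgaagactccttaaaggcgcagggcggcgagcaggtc

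Hspd1 and Hspe1 are transcribed away from each other on chromosome 1. Of the 2 annotated starts of Hspd1, 1 lies 216 bases before that of Hspe1 and the other 95 bases after it, so that the transcripts from the latter overlap those of Hspe1, and the window before it held none of the motifs. The stretch between the former and the start of Hspe1 holds an unbroken run of 4 units, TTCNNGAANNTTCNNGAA, which was found in 4 of the 32851 windows (0.0122%), 2 of them being this same stretch read from either gene. It begins 89 bases before the start of Hspe1. The printed bases are chr1:55088053-55088082 on the plus strand, with the run in capitals.
Hspe1 and Hspd1: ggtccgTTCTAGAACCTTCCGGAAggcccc

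In the window of Hsph1 a single TTCNNGAA match was found, 33 bases before 1 of its starts, at chr5:149636351-149636380 on the minus strand. Neither window of Dnajb1 held any of the motifs.
Hsph1: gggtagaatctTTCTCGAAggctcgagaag

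Of the 25 probe sets, 11 fell in social threat and 0 rose by limma (12 and 0 at an unadjusted p under 0.05), and the 11 belonged to 6 genes: Hspa1a, Hspa1b, Hspa8, Dnajb1, Hspe1 and Hspa9. Over all probe sets 8.67% fell and 7.09% rose. Bright probe sets were called more often, and among the 15222 with a mean level of at least 6 the share that fell was 20.2%, against 10 of 18 member probe sets of that brightness. Both social threat pools lay below both control pools for 13 of the 25, as they did for 28.6% of all probe sets. The median difference was -0.17 over the 25 probe sets and -0.01 over the whole table. By the brightest probe set of each gene, 5 of 9 members fell and 0 rose, against 11.7% and 9.4% of 18193 genes. The medians were -0.21 for members and -0.02 for all genes. Those shares of all genes were not matched for brightness, and all 9 members lay at or above percentile 77.9 of mean level. No probe set of Hsph1, Hsp90aa1 or Hspd1 was called. For the counts at an unadjusted p under 0.05, here and below, no share over all probe sets or genes was computed. In bulk RNA, fewer cells of a type that carries a transcript and less of it in each cell cannot be told apart.

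**Figure D1:**
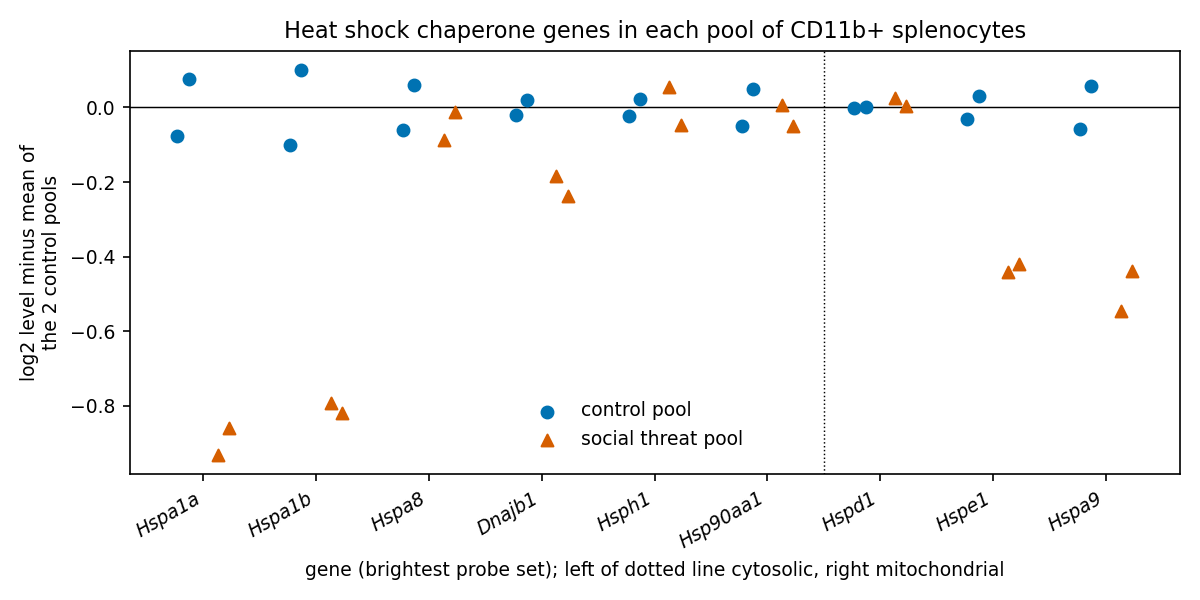
The level of each member gene in each pool, as log2 level of its brightest probe set minus the mean of the 2 control pools; circles are control pools and triangles social threat pools, with the dotted line between cytosolic and mitochondrial genes. Both social threat pools lie below both control pools for Hspa1a, Hspa1b, Dnajb1, Hspe1 and Hspa9, while they overlap the control pools for Hspa8, Hsph1 and Hsp90aa1, and for Hspd1 all 4 pools lie between 9.75 and 9.77.

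The inducible Hsp70 genes fell most among the brightest probe sets. Hspa1a, read by 1 probe set (1452388_at), stood at 8.24 and 8.39 in the control pools and at 7.39 and 7.46 in the social threat pools. The groups did not overlap and were 1.86-fold apart, a log2 difference of -0.90 (SE 0.09, adjusted p = 9.95e-05 by limma). Hspa1b encodes nearly the same protein and had 3 probe sets, all of which fell. Its brightest (1452318_a_at) stood at 8.70 and 8.90 in control pools and at 8.01 and 7.98 in social threat pools, a fall of 0.81 (SE 0.08, limma adjusted p = 0.000157). The other Hspa1b probe sets fell by 0.84 (SE 0.08, 1427127_x_at) and 0.94 (SE 0.10, 1427126_at), from control levels of 8.57 ± 0.02 and 7.73 ± 0.09 (SD, n = 2). All of these calls held in each of the alternatives run, including the loss of any 1 pool. Since the genes are so alike, transcripts of either may bind probes of the other, and the 4 probe sets are not 4 independent readings.

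Hspa8, the constitutive Hsp70 that folds new proteins and strips clathrin coats, gave readings that disagreed between probe sets. The brightest (1420623_x_at) stood at 12.19 and 12.31 in control pools and at 12.16 and 12.24 in social threat pools, which overlapped, with a difference of -0.05 (95% interval -0.15 to 0.05). Probe set 1420622_a_at likewise differed by -0.01 (SE 0.05). The second of the bright probe sets (1455789_x_at) fell by 0.22 (SE 0.04, limma adjusted p = 0.0021), from 12.11 and 12.09 to 11.83 and 11.92, although without a variance trend its adjusted p was 0.157. A dim probe set (1431182_at) fell by 0.99 (SE 0.17), from 6.05 and 6.12 to 5.36 and 4.81, at a mean level of 5.59 and with social threat pools further apart than those of any other Hspa8 probe set. The mean of the 4 probe sets differed by -0.32 (SE 0.05, limma adjusted p = 0.00181 over genes). Whether Hspa8 fell thus depends on the probe set that is read.

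The inducible and constitutive Hsp70 genes were also compared within the same arrays, where the size of the difference depended on the Hspa8 probe set. The log2 level of Hspa1b minus that of Hspa8, brightest probe sets, was -3.49 and -3.41 in control pools and -4.16 and -4.26 in social threat pools, a change of -0.76. For Hspa1a minus Hspa8 the change was -0.85. Against the mean of the 4 Hspa8 probe sets the changes were -0.49 for Hspa1b and -0.58 for Hspa1a, and against 1455789_x_at -0.58 and -0.67. Against the dim 1431182_at they turned to 0.19 and 0.10, with overlapping groups. By the brightest probe set neither difference overlapped between groups, but 2 pools against 2 allow no exact two-sided permutation p below 0.333, which both had.

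Among the partners of Hsp70, Dnajb1, the J protein that delivers clients and stimulates ATP hydrolysis, fell slightly. Its brightest probe set (1416756_at) stood at 9.95 and 9.99 in control pools and at 9.79 and 9.74 in social threat pools, a fall of 0.21 (SE 0.05, limma adjusted p = 0.0216). The other (1416755_at) stood at 9.55 in both control pools and at 9.40 and 9.37 in social threat pools, a difference of -0.17 (SE 0.05) with an adjusted p of 0.07 in limma. For the brighter one the call was lost without a variance trend (adjusted p = 0.172), without social threat pool 1 (0.143) and without social threat pool 2 (0.273). Hsph1, an Hsp110 protein and exchange factor, stood at 7.33 and 7.37 in control pools and at 7.40 and 7.30 in social threat pools by its brighter probe set (1425993_a_at). The 95% interval of its difference ran from -0.20 to 0.20, which leaves out a fall as large as that of Hspa1a.

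Hsp90aa1, the inducible cytosolic Hsp90, was read by 5 probe sets and none was called. The brightest (1426645_at) stood at 11.29 and 11.38 in control pools and at 11.34 and 11.29 in social threat pools, a difference of -0.02 (95% interval -0.12 to 0.08). Another bright one (1438902_a_at) differed by 0.05 (SE 0.04). In the third (1437497_a_at) the control pools themselves differed, at 10.25 and 10.81, around social threat levels of 10.71 and 10.65. Without control pool 2 it was called higher, by 0.42, and without control pool 1 it differed by -0.13 and was not called. The 2 dim probe sets, at mean levels of 4.00 and 3.18, lay below the array medians of 4.41 to 4.43.

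**Figure D2:**
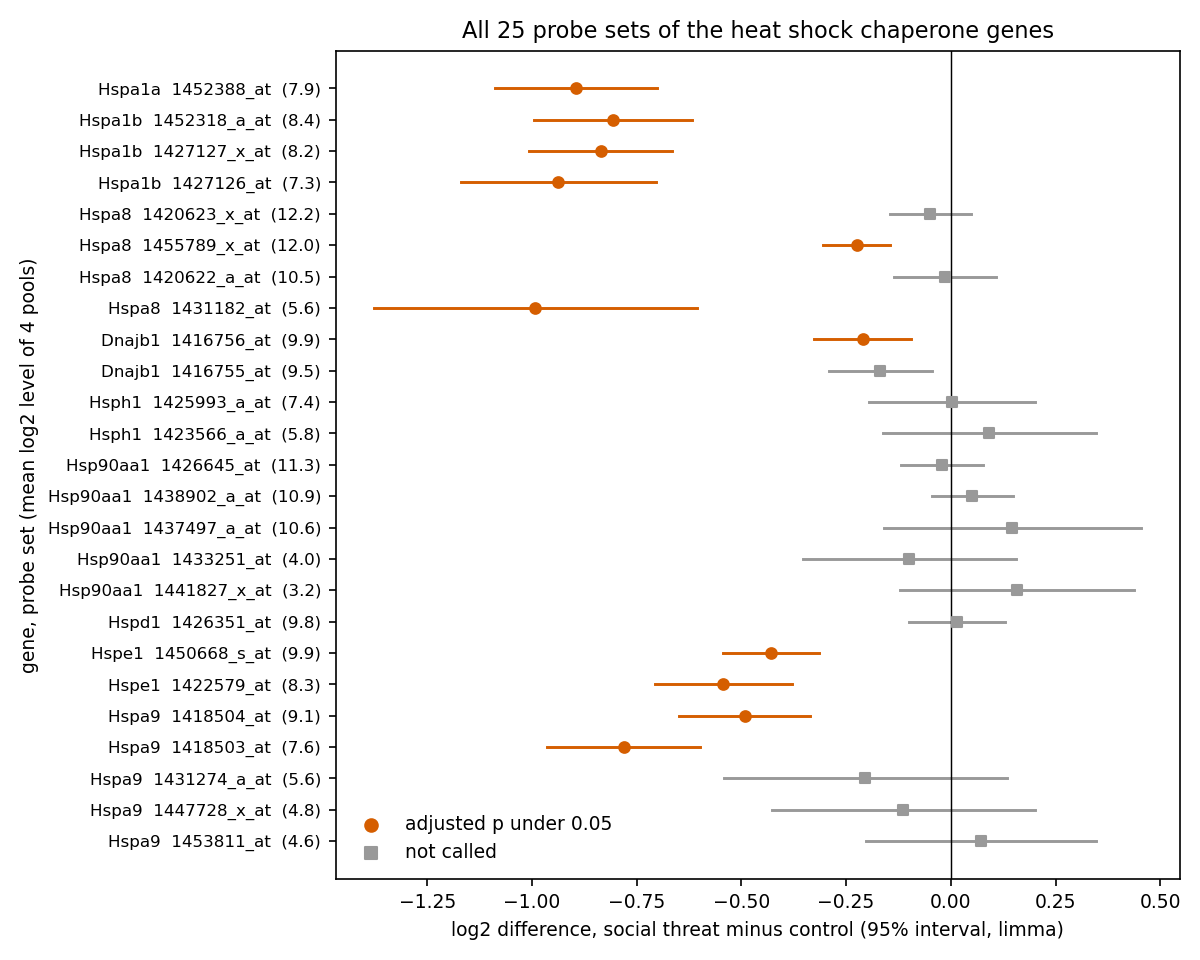
The log2 difference of each of the 25 probe sets, social threat minus control, with its 95% interval from limma; filled circles are called probe sets and squares are not called, and the mean log2 level of the 4 pools stands in brackets. All 4 probe sets of Hspa1a and Hspa1b, both of Hspe1, both of Dnajb1 and the 2 brightest of Hspa9 lie wholly below 0. So do 1455789_x_at and 1431182_at of Hspa8, whereas the intervals of Hspd1, Hsph1 and Hsp90aa1 span 0.

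In the mitochondrial set the chaperonin and its lid did not move together. Hspd1 (Hsp60, 1426351_at) stood at 9.75 in both control pools and at 9.77 and 9.75 in social threat pools, a difference of 0.01 (SE 0.05, 95% interval -0.10 to 0.13). Both social threat pools were above both control pools, by a margin smaller than the SE. Hspe1 (Hsp10, 1450668_s_at) stood at 10.06 and 10.12 in control pools and at 9.65 and 9.67 in social threat pools, a fall of 0.43 (SE 0.05, limma adjusted p = 0.00039). Its other probe set (1422579_at) fell by 0.54 (SE 0.07), from 8.62 and 8.58 to 8.10 and 8.01. The log2 level of Hspe1 minus that of Hspd1 was 0.31 and 0.37 in control pools and -0.13 and -0.08 in social threat pools, a change of -0.44 with no overlap and an exact permutation p of 0.333, the smallest possible. Hspd1 had a single probe set, so that its reading was not repeated by another, whereas both of Hspe1 fell in every alternative run.

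Hspa9 (mortalin), the Hsp70 of the mitochondrial import motor, also fell. Its brightest probe set (1418504_at) stood at 9.24 and 9.35 in control pools and at 8.75 and 8.86 in social threat pools, a fall of 0.49 (SE 0.07, limma adjusted p = 0.00109). The next (1418503_at) fell by 0.78 (SE 0.08), from 7.99 and 7.95 to 7.19 in both social threat pools. The other 3 probe sets had mean levels of 4.64 to 5.61 and differences of -0.20 to 0.07, none called. Averaged over all 5 probe sets the difference was -0.30 (SE 0.07), which was called too. Against Hspd1, the log2 level of Hspa9 changed by -0.51 within arrays.

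Of 105 other chaperone genes in 9 lists, 101 had a probe set of their own, and by the brightest of these 18 fell, 9 rose and 74 were not called, with a median of -0.08. The shares were 17.8% and 8.91%, against 11.7% and 9.4% of all genes. Most of the 101 genes had a mean level of at least 6, and 20.2% of all probe sets of that brightness fell. The shares of all genes were not matched for brightness. Of the 22 called genes named below, only the calls of Fkbp5 and Sdf2l1 held in every alternative run, and 19 lost theirs without social threat pool 1 or pool 2.

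In the list of other J proteins, 6 of 15 genes fell and 1 rose, with a median of -0.15. Dnajb2, which targets clients for degradation, fell by 0.58 (SE 0.10), from 7.22 and 7.09 to 6.57 and 6.58. Dnajb4, a relative of Dnajb1, fell by 0.32 (SE 0.06) and Dnajc7, which also binds Hsp90, by 0.26 (SE 0.06). Dnajc9, a J protein that also chaperones histones, rose by 0.44 (SE 0.08), from 7.94 and 8.06 to 8.52 and 8.36. In these pools the cell cycle list, of which 8 of 9 genes rose, had a mean level of 7.18 to 7.27 in control and of 8.89 to 8.96 in social threat, and its part in the Dnajc9 value was not tested.

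Other Hsp70 and Hsp110 genes gave 1 rise and 1 fall among 8, with a median of -0.02. Hspa13, a microsomal Hsp70, rose by 0.32 (SE 0.07), but the average of its probe sets, 0.22, was not called. Hspa4, an Hsp110 exchange factor, fell by 0.17 (SE 0.05, limma adjusted p = 0.0491). Its call was lost after median centring and as the average of its probe sets, which was -0.10. Hspa2 and Hspa14 differed by -0.17 (SE 0.12) and 0.06 (SE 0.06), not called. Among the nucleotide exchange factors, Bag5 fell by 0.37 (SE 0.08), 1 of 7 genes, and 0 rose (0 also at an unadjusted p under 0.05), with a median of -0.09. Hspbp1, Bag4 and Bag3 differed by -0.20, -0.19 and -0.09 and were not called, Bag3 being a gene that HSF1 is known to induce. The direction of Bag4 turned with the probe set, to 0.06 as the average of its 3 and to 0.31 by the one with the smallest p, and the median of the list was -0.03 from averaged probe sets.

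Of 15 Hsp90 co-chaperones, 3 rose and 1 fell, with a median of -0.03. Fkbp5, a co-chaperone of steroid receptors and a textbook glucocorticoid target, rose by 1.08 (SE 0.08, limma adjusted p = 1.48e-05), from 7.42 and 7.41 to 8.53 and 8.46, while the average over its 3 probe sets was 0.59. Sugt1 rose by 0.27 (SE 0.05) and Ahsa1, the activator of the Hsp90 ATPase, by 0.18 (SE 0.05), the latter a call lost after median centring. St13, which binds Hsp70, fell by 0.30 (SE 0.07). As averages over their probe sets St13 and Ahsa1 differed by -0.11 and 0.05 and were not called.

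CCT, the cytosolic chaperonin of actin and tubulin, and its partner prefoldin fell for 5 of 14 genes and rose for 0 (7 and 1 at an unadjusted p under 0.05), with a median of -0.11. Cct3 and Tcp1, subunits of the ring, fell by 0.36 (SE 0.07) and 0.20 (SE 0.04), and the prefoldin subunits Pfdn2 and Pfdn5 by 0.34 (SE 0.06) and 0.16 (SE 0.04). As averages over their probe sets Cct3 and Pfdn5 differed by -0.17 and -0.10 and were not called. Small heat shock proteins gave 0 calls by limma among 9 genes (2 lower at an unadjusted p under 0.05), 8 of them at mean levels under 6, and the median of -0.16 turned to 0.01 when the probe sets of each gene were averaged. The exception in level, Hspb11, was listed by its symbol, and whether it acts as a small heat shock protein was not tested. It differed by -0.34 (SE 0.10, limma adjusted p = 0.0519), and by -0.40 without control pool 2. Hspb11 was called lower with the pool number as a block (limma adjusted p = 0.0388). The same held with only probe sets of a mean of at least 6 tested (0.0305). Over its probe sets it averaged -0.15. Hspb9, Cryab and Hspb1 differed by -0.30, -0.24 and -0.22 at dim levels, Hspb1 by -0.09 without control pool 1 and by -0.34 without control pool 2, and Cryab by -0.14 as an average of probe sets.

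Other mitochondrial chaperones and proteases fell for 3 of 17 genes and rose for 0 (6 and 1 at an unadjusted p under 0.05). The median was -0.15. All 17 had a mean level of at least 6, and 20.2% of all probe sets of that brightness fell. Grpel2, an exchange factor of Hspa9, fell by 0.31 (SE 0.09), the protease gene Htra2 by 0.29 (SE 0.07) and Pam16, a regulator of the import motor, by 0.26 (SE 0.07). Trap1, the mitochondrial Hsp90, differed by -0.30 (SE 0.09, limma adjusted p = 0.0595) and was not called here. It was called lower with only probe sets of a mean of at least 6 tested (adjusted p = 0.0326), with the pool number as a block (0.0289), without control pool 2 (0.00927) and as the average of its probe sets (0.0178). Without control pool 1 Pam16 differed by -0.17 and Grpel2 by -0.29, and neither was called. As the average of its probe sets Grpel2 differed by -0.21 and was not called.

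Chaperones of the endoplasmic reticulum, which answer to a separate stress pathway, rose for 4 of 11 genes and fell for 1 (3 and 2 after quantile normalization), with a median of 0.13. Sdf2l1 rose by 0.54 (SE 0.06, limma adjusted p = 0.000342), from 8.57 and 8.59 to 9.14 and 9.09. Hsp90b1, the Hsp90 of this compartment, rose by 0.33 (SE 0.04), from 10.84 and 10.90 to 11.17 and 11.22, and the J protein Dnajb11 by 0.22 (SE 0.06). Dnajb9 fell by 0.27 (SE 0.06), or by 0.18 without control pool 1. Heat shock factors and the proteins that bind them gave 0 calls by limma among 5 genes (1 higher at an unadjusted p under 0.05). Of these genes, 4 had mean levels under 6, where few probe sets can be called. Hsf1 was not analysed here. Hsbp1, which binds HSF1, differed by 0.16 (SE 0.05, limma adjusted p = 0.0793), and was called higher as the average of its probe sets (0.19, adjusted p = 0.0226), by its other probe set (0.22, 0.0427) and with only probe sets of a mean of at least 6 tested (0.0354). Hsf4, Hsf5 and Hsbp1l1 had mean levels over the 4 pools of 4.15, 2.97 and 3.57.

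**Figure D3:**
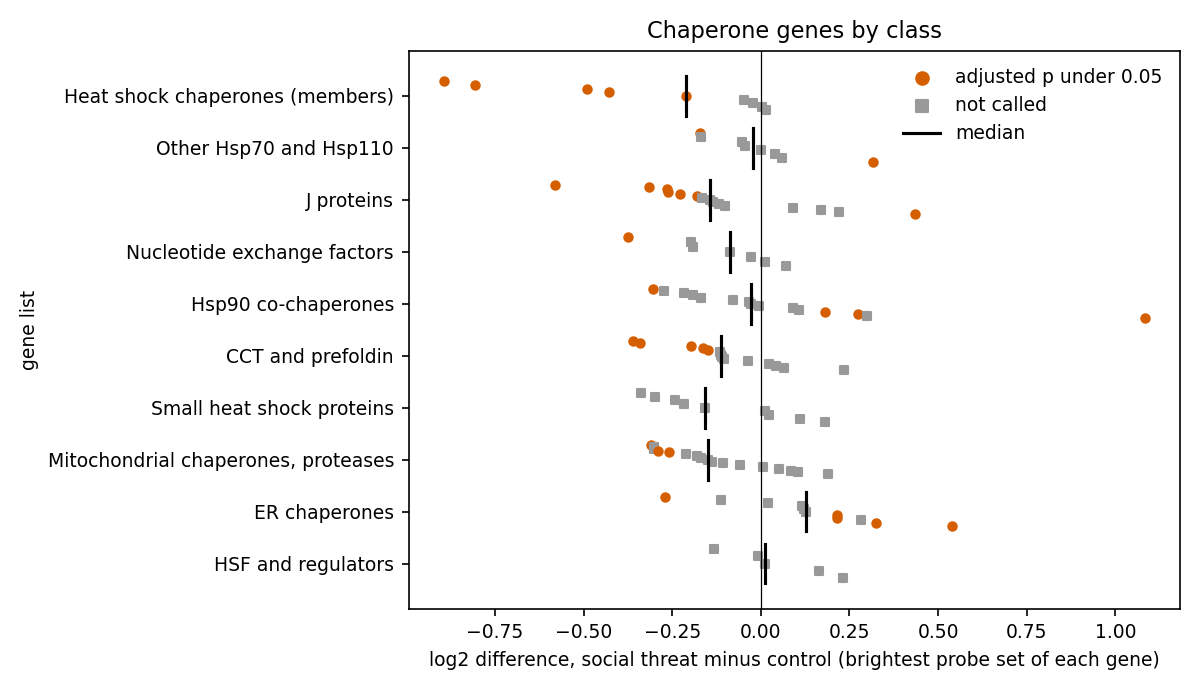
The log2 difference of each gene, social threat minus control, by its brightest probe set, for the heat shock chaperones and 9 lists of other chaperone genes; circles are called genes, squares are not called and black lines are medians. The lowest values belong to Hspa1a and Hspa1b, and the medians of the lists run from -0.16 for small heat shock proteins, which turns to 0.01 when probe sets are averaged, to 0.13 for endoplasmic reticulum chaperones.

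Other groups of genes moved in the same pools. All 10 immediate early genes fell, with a mean level of 11.42 to 11.44 in control and 10.78 to 10.79 in social threat and a median of -0.53, among them Egr2 by 1.13 (SE 0.05) and Egr1 by 0.94 (SE 0.04). Lymphoid and dendritic cell markers fell as well: 6 of 7 B cell genes (median -1.11, mean level 8.46 to 8.48 and then 7.48 to 7.53), 7 of 7 T cell genes (-0.96, 7.15 to 7.19 and then 6.04 to 6.11), 4 of 6 NK cell genes (-0.49, 7.06 to 7.13 and then 6.36 to 6.42) and 7 of 7 conventional dendritic cell genes (-1.12, 8.52 in both and then 7.33 to 7.39). Immature neutrophil genes rose for 9 of 9 (median 3.58, mean level 9.13 to 9.25 and then 11.89 to 11.94) and erythroid genes for 6 of 7 (1.93, 5.36 to 5.39 and then 7.08 to 7.15). Of the 9 myeloid genes that check the labelled cell type, 5 rose and 3 fell around mean levels of 12.50 to 12.64. Itgam itself rose from 10.47 and 11.01 to 11.64 and 11.59, and Adgre1 fell from 10.22 and 10.23 to 9.88 and 9.87. The part of these shifts in the chaperone values was not tested.

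Among 4581 genes with a mean level of at least 8, those whose pattern over the 4 pools lay nearest to that of Hspa1b were Erdr1, Dusp5, Gpr132, Rasgef1b and Gpr183. Their root mean square distance from Hspa1b, after centring each gene, was 0.031 to 0.060, and their differences ran from -0.88 to -0.74. Nearest to Hspd1 were Nono, Tardbp, Ppp1r2, Hdc and Cyb5r1, at 0.004 to 0.006. With 4 pools this likeness describes little more than the size of the group difference and of the spread.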

How the data were processed

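The authors deposited 1 log2 value for each probe set and array. RMA is the method in the submitters' processing notes, without a version. It corrects background and normalizes by quantiles, which compresses low signals. Array medians lay between 4.41 and 4.43, Pearson's r was 0.9966 and 0.9981 within groups and at most 0.9904 between them, and no pair of arrays shared over 0.48% of values. Depth has no meaning for arrays; their number limits precision. The labels name no batch. The p-values rest on the spread between pools, each an average over 5 mice, and not on that between mice. Limma took this spread largely from other probe sets of like level, with 2 residual against 7.1 prior degrees of freedom.

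Probe sets were named by the supplied platform annotation (34945 with 1 symbol, 932 with several, which named no gene, and 9160 not listed). All 45037 were fitted in R 4.3.3 with limma 3.58.1 (lmFit, eBayes with trend; 2 residual and 7.1 prior degrees of freedom), two-sided, Benjamini-Hochberg over all. A gene was read by its brightest probe set. Up to 4 genes of each chaperone list were named, called ones first, then by size, and at most 2 of a marker list. The members and lists were chosen with earlier results of these data known. The code was tested on simulated data. Alternatives were no trend, median centring, quantile normalization, a mean of at least 6, a replicate block, each pool left out, and other choices of probe set.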

Additional observations from a re-analysis of the deposited data

How the results depend on the processing

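Of the 25 member probe sets, 11 fell with median centring, with quantile normalization and with the pool number as a replicate block. The deposited values were already normalized by quantiles, so the first 2 of these could change little and are a weak check. Hspa1a, at -0.896, moved to -0.893 and -0.884 with them. With only probe sets of a mean of at least 6 tested, 11 of the 18 left fell, without the dim Hspa8 probe set, which was no longer tested, and with the second of Dnajb1 (adjusted p = 0.0287). Without a variance trend 9 fell, and with a pool left out 10 or 11. The number that rose was 0 in these fits except without control pool 2, where it was 1 (leaving out each pool gave 0 to 1). Of all probe sets, 7099 were called, 4689 without a trend and between 3171 and 8721 with a pool left out, the low end without social threat pool 2; with that pool kept and pool 1 left out it was 3341. Of 9 member genes by their brightest probe set, 8 stayed on the same side of the threshold without a trend, without social threat pool 1 and without social threat pool 2, the exception being Dnajb1, and Hspa8 was called as an average of its probe sets and when its lowest p represented it. No member's called difference changed sign.

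Deviations of pools with the same number correlated at 0.052 over all probe sets, so the numbers were not taken to pair the groups. The replicate block gave 8168 calls. Signal near background limits the dim probe sets, and 2 pools per group limit the rest. Read by the dim Hspa8 probe set, a choice added after seeing the data, the change of Hspa1a and Hspa1b minus Hspa8 turned to 0.10 and 0.19, and averaging probe sets turned the median of the small heat shock proteins to 0.01.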
